A study of Mus musculus with 3 samples.

Results

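Transforming growth factor beta (TGF-beta) signaling was described at the level of RNA in mouse CD4+ T cells through 10 genes: the ligand gene *Tgfb1*, the receptor genes *Tgfbr1*, *Tgfbr2* and *Tgfbr3*, the signal transducers *Smad2*, *Smad3* and *Smad4*, the inhibitor *Smad7*, and the co-repressors *Ski* and *Skil*. They were chosen by name as core genes of the pathway, with earlier results of these data known. All 10 were found among the 31053 genes of the deposited tables. The data are 3 single-cell RNA libraries of spleen cells from male C57BL/6 mice aged 5 to 10 weeks, enriched for naïve CD4+ T cells and sorted as 7AAD-CD3+CD4+ cells, that is, live T cells carrying CD4. The 0hr-WT library holds cells of *Ift20* f/f mice given the buffer DPBS. The 24hr-WT library holds cells of the same genotype cultured for 24 h with antibodies against CD3 and CD28, at 1 μg/mL of each, which trigger the T cell receptor and its costimulatory receptor. The 24hr-KO library holds cells stimulated in the same way from *Ift20* f/f CD4 cre mice, called IFT20-KO here. *Ift20* encodes a protein of intraflagellar transport. The *Cd4*-driven Cre acts from T cell development onward and is meant to remove the floxed allele in cells that have expressed *Cd4*. All 3 groups carry that allele. No unstimulated IFT20-KO library was analysed, so the effects of the genotype and of stimulation in that genotype cannot be told apart. Nor was a library of cells cultured for 24 h without the antibodies, so their effect and that of the culture cannot be told apart. A ratio for stimulation below means 24hr-WT over 0hr-WT and holds both.

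TGF-beta is made as a latent dimer and, once released, binds the type II receptor (*Tgfbr2*), which recruits and phosphorylates the type I receptor (*Tgfbr1*). The type III receptor, betaglycan (*Tgfbr3*), binds ligand without a kinase domain and presents it. The type I receptor phosphorylates SMAD2 and SMAD3, which join SMAD4 and enter the nucleus, while SMAD7 blocks and degrades the receptor and SKI and SKIL (SnoN) hold SMAD complexes in a repressed state. In CD4+ T cells the pathway is known for restraining activation, for keeping naïve cells quiet and for its part in making regulatory T cells and Th17 cells.

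Promoters are shown for the ligand, both kinase receptors and *Smad3*, to give the sequence before the genes of the signaling line. Windows were given for 5 of the 10 members, and the fifth, *Ski*, is described by its counts below. The stretches are the 250 bases before the RefSeq start site in the GRCm38.p6 build, 5′ to 3′ on the strand of the gene. Capitals mark matches to GGGCGG, the SP1 motif, or to CAGAC, the short SMAD element, on either strand. The windows are chr7:25686752-25687001 for *Tgfb1* and chr4:47352972-47353221 for the first window of *Tgfbr1*, both on the plus strand, and chr9:116175364-116175613 for *Tgfbr2* and chr9:63757995-63758244 for *Smad3*, both on the minus strand.
Tgfb1: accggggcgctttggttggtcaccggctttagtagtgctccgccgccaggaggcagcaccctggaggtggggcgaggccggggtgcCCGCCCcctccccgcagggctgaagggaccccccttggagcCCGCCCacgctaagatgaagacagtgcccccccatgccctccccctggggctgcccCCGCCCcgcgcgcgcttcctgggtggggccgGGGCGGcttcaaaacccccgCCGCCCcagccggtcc
Tgfbr1: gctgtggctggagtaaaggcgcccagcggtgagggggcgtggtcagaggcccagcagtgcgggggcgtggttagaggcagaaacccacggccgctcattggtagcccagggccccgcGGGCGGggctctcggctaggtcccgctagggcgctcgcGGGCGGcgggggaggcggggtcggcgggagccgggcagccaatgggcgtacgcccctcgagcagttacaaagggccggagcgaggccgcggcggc
Tgfbr2: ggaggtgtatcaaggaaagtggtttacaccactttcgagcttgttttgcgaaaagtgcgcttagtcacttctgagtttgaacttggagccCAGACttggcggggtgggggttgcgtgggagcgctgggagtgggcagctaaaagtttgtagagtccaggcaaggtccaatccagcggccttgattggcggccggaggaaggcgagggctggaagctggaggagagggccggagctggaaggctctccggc
Smad3: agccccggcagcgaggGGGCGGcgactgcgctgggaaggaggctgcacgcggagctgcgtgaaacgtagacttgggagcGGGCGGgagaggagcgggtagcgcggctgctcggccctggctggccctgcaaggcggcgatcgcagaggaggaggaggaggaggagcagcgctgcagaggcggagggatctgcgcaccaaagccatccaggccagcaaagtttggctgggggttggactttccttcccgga

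The *Tgfb1* window held 5 SP1 matches, and the first of *Tgfbr1* and that of *Smad3* held 2 each. The *Ski* window also held 5, at a GC content of 87.6%. The *Tgfbr2* window held none of these and 1 CAGAC match, 160 bases before the start site. The second window of *Tgfbr1*, not printed, held 0 SP1 matches and 1 CAGAC match. None of the 4 stretches held the palindromic SMAD element GTCTAGAC, the AP-1 motif TGANTCA or the cyclic AMP response element TGACGTCA. Among 32851 windows of the same length, 42.2% held CAGAC, 32.7% GGGCGG, 6.75% TGANTCA, 1.55% TGACGTCA and 0.167% GTCTAGAC. The motifs do not overlap one another. The GC content was 75.2% for *Tgfb1*, 74.8% for *Tgfbr1*, 69.2% for *Smad3* and 58.4% for *Tgfbr2*, against a median of 52.4% over all windows. A match of letters is a description of the window and not a binding site.

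Expression was counted in unique molecular identifiers (UMIs), tags that mark single RNA molecules. Barcodes with over 200 genes and a mitochondrial share of UMIs below 15% were kept as cells. By this filter 8031 cells of 0hr-WT, 9903 of 24hr-WT and 13920 of 24hr-KO remained, with 37133949, 116979076 and 106435143 UMIs. The median depth was 4627, 12167 and 5014.5 UMIs per cell. T cell markers were found in 99.5% to 99.9% of the cells of a library, and B cell markers in 1.02% to 1.57%. The B cell list shows stray B cells and their free RNA, and does not give the level of free T cell RNA. *Ppbp* and *Pf4*, platelet markers, were at 0 in all 3 libraries. *Cst3*, at 76.3 to 80.3 CPM, made up nearly all counts of the myeloid list, *Klrd1*, at 42.0 CPM in 0hr-WT and under 2 CPM after stimulation, those of the NK list, and *Cd8b1*, at 9.04 to 28.6 CPM, those of the CD8 list. *Ift20*, the targeted gene, was at 64.4 CPM in 0hr-WT, 76.0 CPM in 24hr-WT and 6.60 CPM in 24hr-KO, the low value being in the library labelled as knockout. Cell barcodes shared between libraries numbered 114 to 197 per pair, at most 1.99% of a library.

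Levels are given as UMIs per 1000000 UMIs of a library (CPM), and differences as log2 ratios of CPM, with exact intervals at the 95% level in brackets. With 1 library per condition there is no replicate and no test, and all intervals cover counting error only. A ratio of at least 2-fold is the measure of size used below, for genes with at least 10 UMIs over the 2 libraries compared. All 10 members passed that minimum in both comparisons.

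After stimulation the receptor genes and the inhibitor *Smad7* stood at lower levels, while the ligand gene and *Smad2* did not. In the WT cells 7 of the 10 members were at least 2-fold lower after 24 h, namely all 3 receptors, *Smad3*, *Smad4*, *Smad7* and *Ski*, and 0 were at least 2-fold higher. Over all 13297 genes tested, 23% were at least 2-fold lower and 19.3% at least 2-fold higher. The median log2 ratio was -1.58 over the members and -0.09 over all genes.

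**Figure D1:**
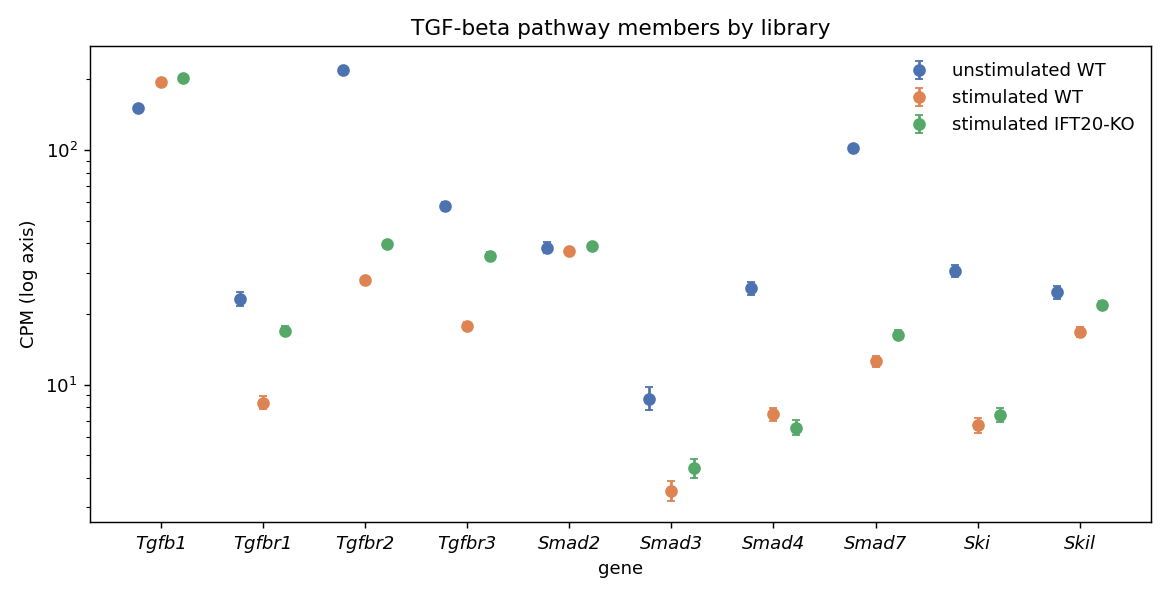
Level of each of the 10 genes in the 3 libraries, in CPM on a log axis, with exact 95% counting intervals as bars, which are often smaller than the points. *Tgfbr2* and *Smad7* lie far lower in both stimulated libraries than in the unstimulated one, while *Tgfb1* and *Smad2* lie close together in all 3.

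The ligand gene *Tgfb1* (chromosome 7, 25687002 to 25705077) was at 151 CPM in 0hr-WT, 194 in 24hr-WT and 203 in 24hr-KO. It was the single member with a higher level after stimulation, by a log2 ratio of 0.36 (0.32 to 0.40), or 1.28-fold. The share of cells with a *Tgfb1* UMI was 44.8%, 74.3% and 64.5%. With every cell thinned to 1400 UMIs, which removes the difference in depth, it was 18.3%, 23.4% and 25.1%.

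*Tgfbr2*, the receptor that binds the ligand first (chromosome 9, 116084293 to 116175360), was at 219 CPM in 0hr-WT, 27.8 in 24hr-WT and 39.6 in 24hr-KO. The level was 7.88-fold lower after stimulation, a log2 ratio of -2.98 (-3.04 to -2.92), and 3.77% of all tested genes had a ratio below it. A *Tgfbr2* UMI was found in 60.6% of unstimulated cells, 26.9% of stimulated WT cells and 25.2% of stimulated IFT20-KO cells, and after thinning in 25.2%, 5.80% and 7.94%. The unstimulated library was thus well above both stimulated ones on each measure.

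*Tgfbr1*, the signaling kinase partner (chromosome 4, 47353222 to 47414931), was at 23.2, 8.39 and 17.0 CPM in the 3 libraries, and the ratio for stimulation was -1.47 (-1.60 to -1.33). *Tgfbr3* (chromosome 5, 107106570 to 107289629) was at 57.7, 17.8 and 35.4 CPM, with a ratio of -1.70 (-1.79 to -1.61). For both genes the stimulated IFT20-KO library lay between the other libraries. After thinning, *Tgfbr1* UMIs were found in 217 of 7230 cells, in 209 of 9482 (2.20%) and in 564 of 13920 (4.05%), and *Tgfbr3* UMIs in 6.93%, 4.72% and 8.43% of cells, so on this measure the IFT20-KO library was above both WT libraries. That measure gives each cell the same weight, whereas CPM is set mainly by the cells with many UMIs. Thinning also left out 801 cells of 0hr-WT and 421 of 24hr-WT as too shallow, and 0 of 24hr-KO. The part of this in the order of the libraries was not tested.

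Cells in which both kinase receptors were detected made up 6.29% (5.77 to 6.84) of 0hr-WT, 2.85% (2.53 to 3.19) of 24hr-WT and 3.61% (3.30 to 3.93) of 24hr-KO. After thinning the shares were 0.844%, 0.348% and 0.409%. The share with both depends on the share with each gene, and a share expected from these was not worked out. Whether the lower share with both after stimulation goes beyond the lower share with *Tgfbr2* was thus not tested, and it is not read as a separate result. The share with *Tgfbr2* UMIs but none of *Tgfbr1* was 54.3% in unstimulated cells, against 24.1% and 21.6% in the stimulated libraries. A cell without a UMI of a receptor may still express it, since most of its RNA is not captured.

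The SMAD transducers were unequal. *Smad2* (chromosome 18, 76241580 to 76310963) was at 38.3, 37.0 and 39.0 CPM, and the ratio for stimulation of -0.05 (-0.14 to 0.04) is bounded within a small range by counting error. *Smad3* (chromosome 9, 63646767 to 63757994) was at 8.73, 3.54 and 4.40 CPM, a ratio of -1.30 (-1.52 to -1.09). *Smad4*, the shared partner of both (chromosome 18, 73639009 to 73703780), was at 25.7, 7.46 and 6.55 CPM, a ratio of -1.79 (-1.92 to -1.65).

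After thinning, *Smad2* UMIs were found in 4.99% of unstimulated and 5.23% of stimulated WT cells, and *Smad4* UMIs in 3.31% and 1.29%. *Smad3* was sparse, with 324, 414 and 468 UMIs in the 3 libraries, and its thinned shares of 1.09% (0.866 to 1.36) and 0.949% (0.764 to 1.17) in the WT libraries have overlapping intervals. Without thinning *Smad3* UMIs were in 3.90%, 3.88% and 3.28% of cells, above the 1.57%, 1.02% and 1.06% with a UMI of the B cell list. That list does not give the level of free T cell RNA, so the part of free RNA in the *Smad3* UMIs was not tested.

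*Smad7*, the inhibitor of the receptor (chromosome 18, 75367529 to 75395935), was at 102 CPM in 0hr-WT, 12.6 in 24hr-WT and 16.3 in 24hr-KO. Its ratio for stimulation was -3.02 (-3.11 to -2.93), which is 8.10-fold lower and close in size to that of *Tgfbr2*. UMIs of *Smad7* were found in 35.6%, 13.1% and 11.2% of cells, and after thinning in 12.3%, 2.62% and 3.45%. The co-repressor *Ski* (chromosome 4, 155154075 to 155222592) was at 30.4, 6.70 and 7.42 CPM, a ratio of -2.18 (-2.31 to -2.05). *Skil*, its relative (chromosome 3, 31095058 to 31122577), was at 24.7, 16.8 and 21.8 CPM, a ratio of -0.56 (-0.67 to -0.45), which is 1.48-fold lower. The pair of co-repressors thus differed in the size of their ratios by more than the counting intervals. After thinning, *Skil* UMIs were found in 2.88% of 0hr-WT and 3.12% of 24hr-WT cells, so its lower level was not seen on that measure.

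Stimulated WT cells held more UMIs each, so a lower CPM is not always a lower number of molecules per cell. Per cell and without scaling, the median gene was higher by 1.26 on the log2 scale in 24hr-WT than in 0hr-WT. On this scale *Tgfbr2* (-1.63) and *Smad7* (-1.66) were still at least 2-fold lower, and *Ski* (-0.83), *Smad4* (-0.43), *Tgfbr3* (-0.35) and *Tgfbr1* (-0.11) were lower by less than that. *Smad3* was nearly level at 0.05 and *Skil* was higher by 0.79. *Tgfb1* (1.71) and *Smad2* (1.30) were at least 2-fold higher. Captured UMIs also depend on sequencing depth, and the part of RNA content and that of depth cannot be told apart here.

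**Figure D2:**
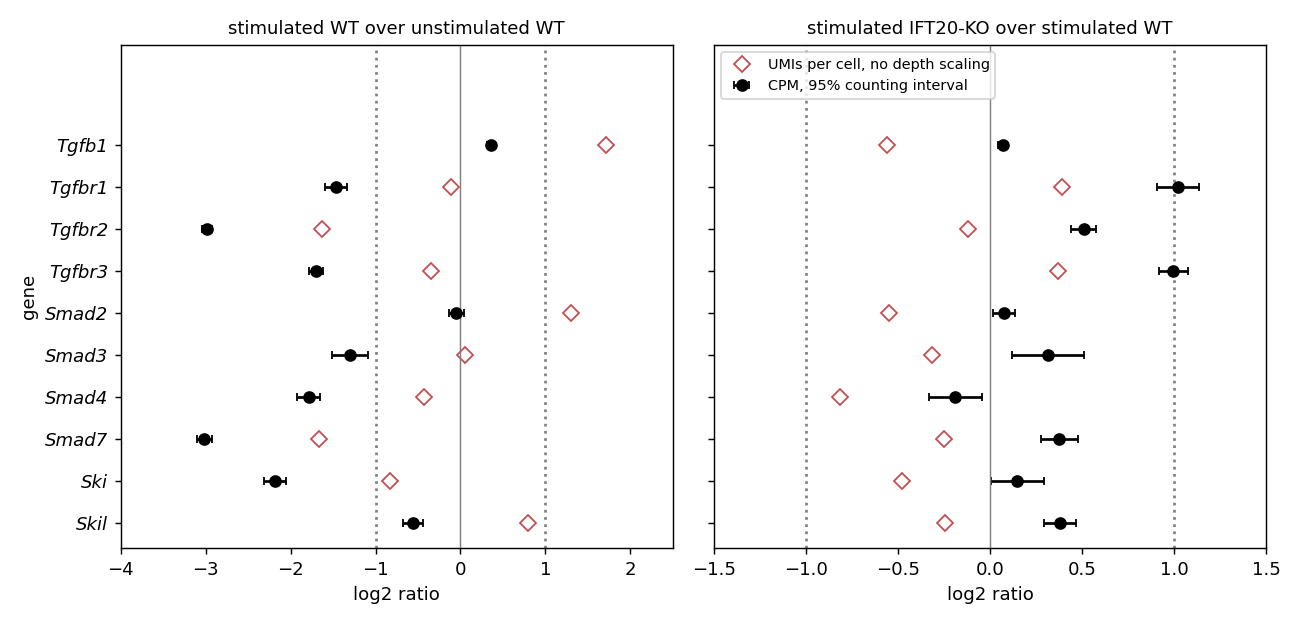
Log2 ratio of each gene for stimulation (left) and for IFT20-KO against WT among stimulated cells (right), as CPM with 95% counting intervals (black points) and as UMIs per cell without scaling (red diamonds), with dotted lines at 2-fold. *Tgfbr2* and *Smad7* lie beyond the 2-fold line for stimulation on both scales, and in the right panel *Tgfbr1* and *Tgfbr3* lie apart from the other members at about 2-fold in CPM.

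Depth also varied within each library, and the members varied with it. Barcodes with under 3000 UMIs were 16.6% of the cells of 0hr-WT, 21.7% of 24hr-WT and 39.6% of 24hr-KO, and they held 5.57%, 3.30% and 11.9% of the UMIs. All 10 members had a higher CPM in these barcodes than in the deeper cells of the same library, with intervals above 0 in all 3 libraries. Many other genes did too, since 44.8%, 52.8% and 57.8% of all genes with at least 10 UMIs had an interval above 0, and the median log2 ratio over all genes was 0.55, 0.89 and 0.60. In 24hr-WT the excess was greatest for *Tgfbr3*, at 160 against 12.9 CPM, followed by *Tgfbr1* at 55.4 against 6.78 CPM. *Tgfbr2* was at 131 against 24.3 CPM there and *Smad7* at 52.5 against 11.2 CPM. *Tgfb1* and *Smad2* differed less than the median gene, with 251 against 192 CPM and 53.0 against 36.5 CPM. The low-UMI barcodes of 24hr-WT had a median mitochondrial share of 10.3%, against 1.27% in the deeper cells. Their naïve markers summed to 2624 against 854 CPM and their activation markers to 2227 against 1199 CPM, so both lists were higher in them. In 0hr-WT the mitochondrial shares were 7.80% and 2.25%. The part of cell quality in the member values was not tested.

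Within bands of UMIs per cell, the lower level of *Tgfbr2*, *Smad7*, *Smad4* and *Ski* after stimulation was seen in each of the 4 bands with at least 50 cells in both WT libraries, each time by at least 2-fold. For *Tgfbr2* the ratios ran from -2.71 to -1.79 and for *Smad7* from -2.91 to -2.13. The median ratio over all genes in the 4 bands, from shallow to deep, was 0.10, 0.30, -0.09 and -0.33. *Tgfb1* was higher after stimulation in all 4 bands, by 0.28 to 0.93, and all 4 intervals of *Smad2* included 0. *Smad3* ran from -1.46 to 0.11, with an interval below 0 in 3 of the 4 bands and a ratio past 2-fold in 1.

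The other receptors depended on the band. Among barcodes under 3000 UMIs, *Tgfbr1* had a ratio of 0.24 (-0.11 to 0.60) and *Tgfbr3* one of -0.07 (-0.26 to 0.13), and both intervals included 0. Between 3000 and 6000 UMIs the ratios were 0.12 (-0.41 to 0.61) and -0.52 (-0.95 to -0.13). Between 6000 and 12000 UMIs, where 2335 stimulated and 1305 unstimulated cells could be compared, the ratios were -1.39 (-1.69 to -1.09) and -1.56 (-1.75 to -1.36). Between 12000 and 24000 UMIs, where only 60 unstimulated cells fell, they were -0.55 (-1.54 to 0.67) and -1.91 (-2.38 to -1.40). The interval of *Tgfbr1* was thus below 0 in 1 of the 4 bands and that of *Tgfbr3* in 3. *Skil* was higher by 0.52 and 0.66 in the bands under 3000 and from 3000 to 6000 UMIs, and lower by a ratio of -0.65 and -1.12 in the bands above. The same number of UMIs marks a deep cell in the unstimulated library and a shallow one in the stimulated library, so the bands do not match cells of the same kind.

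**Figure D3:**
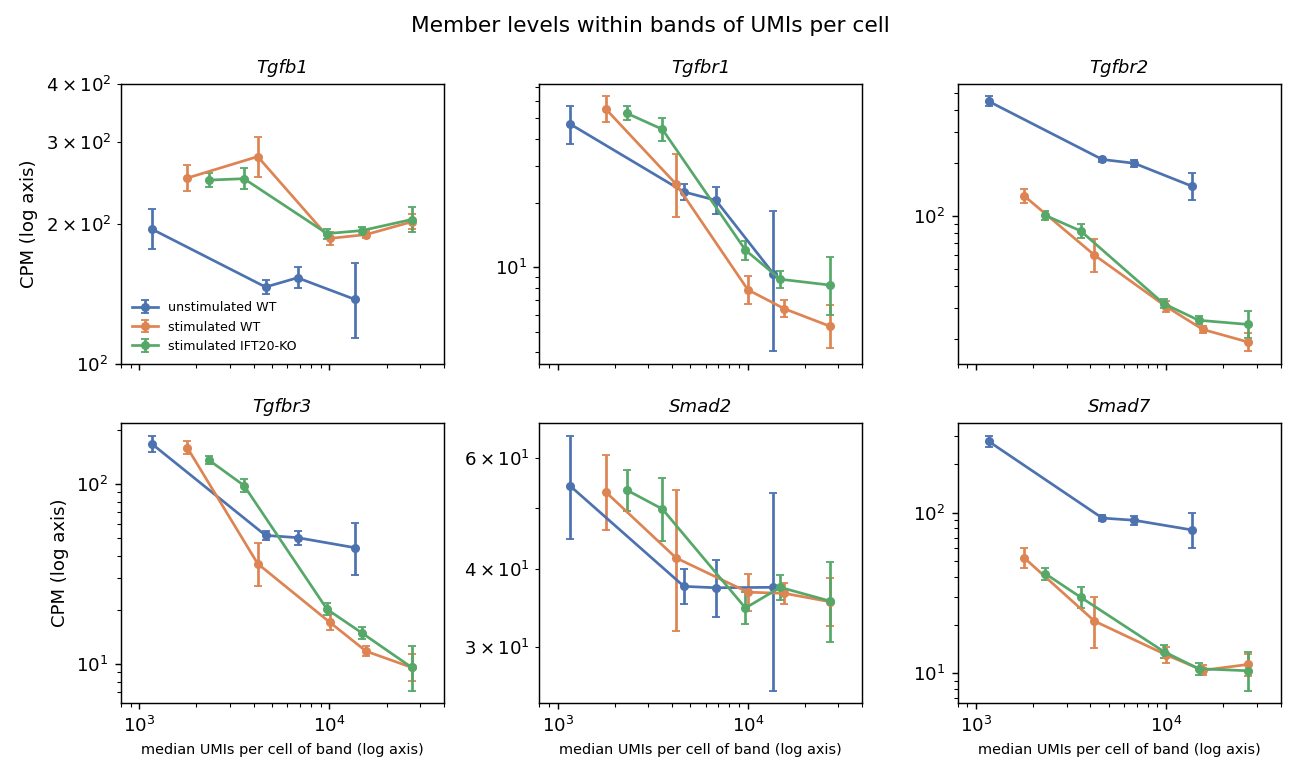
CPM of 6 genes within bands of UMIs per cell, at the median depth of each band (both axes log), for bands with at least 50 cells, with 95% counting intervals. *Tgfbr2* and *Smad7* are lower in both stimulated libraries at every depth, while the curves of *Tgfbr1* and *Tgfbr3* start at similar levels in all 3 libraries and lie apart at intermediate depths.

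Among stimulated cells, IFT20-KO and WT differed most in the receptors by CPM over all cells. *Tgfbr1* was 2.03-fold higher in 24hr-KO, a log2 ratio of 1.02 (0.91 to 1.13), and *Tgfbr3* 1.99-fold higher, a ratio of 1.00 (0.92 to 1.07), just under the 2-fold line. So 1 of the 10 members was at least 2-fold higher and 0 at least 2-fold lower, where 3.92% of all 13504 genes tested were higher by that size and 1.67% lower. The median over the members was 0.35 and over all genes 0.14, and 96.3% of tested genes had a ratio below that of *Tgfbr1*.

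*Tgfbr2* was higher by 0.51 (0.44 to 0.57), *Skil* by 0.38 (0.29 to 0.47), *Smad7* by 0.38 (0.28 to 0.48) and *Smad3* by 0.31 (0.12 to 0.51). *Ski* at 0.15, *Smad2* at 0.08 and *Tgfb1* at 0.07 lay within 0.07 of the median of all genes. By CPM over all cells *Smad4* was the 1 member with a lower level in IFT20-KO, a ratio of -0.19 (-0.33 to -0.04). The direction for *Smad3* turned with the cells used, to -0.02 among cells with at least 3000 UMIs and -0.24 among those with at least 5000, where *Smad4* was at -0.28. In UMIs per cell, where the median gene was at -0.49, *Tgfbr1* (0.39) and *Tgfbr3* (0.37) were higher in IFT20-KO and the other 8 members were lower.

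The libraries also differed in the share of low-UMI barcodes, which was 39.6% in 24hr-KO and 21.7% in 24hr-WT, and its part in the ratios was not tested. Such barcodes held 36.8% of the *Tgfbr1* UMIs and 45.6% of the *Tgfbr3* UMIs of 24hr-KO, against 21.8% and 29.7% in 24hr-WT. Among cells with at least 5000 UMIs the ratio of *Tgfbr1* was 0.63, that of *Tgfbr3* 0.43 and that of *Tgfbr2* 0.23, at a median of all genes of 0.04. Among cells with more than 1000 genes and under 10% of mitochondrial UMIs the ratios were 1.24, 1.32 and 0.63. Barcodes under 3000 UMIs had a median mitochondrial share of 10.3% in 24hr-WT and 5.74% in 24hr-KO. That filter thus need not remove the same share of them in both libraries, and its part was not tested. Within bands, *Tgfbr1* was higher in IFT20-KO in the 4 bands from 3000 UMIs up, by 0.46 to 0.85 with intervals above 0, and had a ratio of -0.07 (-0.29 to 0.16) under 3000 UMIs. *Tgfbr3* ran from -0.23 (-0.36 to -0.09) under 3000 UMIs to 1.44 between 3000 and 6000 UMIs. At 24000 UMIs and above it was at 0.00 (-0.50 to 0.48). The size and direction of its ratio thus differed between bands. The value of 1.44 set 339 cells of 24hr-WT, at a median of 4198 UMIs, against 1602 of 24hr-KO, at 3555 UMIs. A band need not hold cells of the same kind in both libraries. *Tgfbr2* was between -0.37 (-0.52 to -0.22) under 3000 UMIs and 0.46 (0.13 to 0.80) between 3000 and 6000 UMIs. The median ratio over all genes was -0.07 under 3000 UMIs and 0.23 between 3000 and 6000 UMIs. Both *Tgfbr2* and *Tgfbr3* were thus lower in IFT20-KO under 3000 UMIs, against their higher CPM over all cells. In that band the median depth was 1788 UMIs in 24hr-WT and 2316 UMIs in 24hr-KO, so depth was not matched within it. The part of this in the member ratios under 3000 UMIs was not tested. *Smad3* was at -0.51 (-0.88 to -0.12) under 3000 UMIs and -0.39 (-0.73 to -0.06) between 12000 and 24000 UMIs, and none of its 5 intervals lay above 0. Under 3000 UMIs *Smad7* was at -0.33 (-0.57 to -0.09) and *Skil* at -0.29 (-0.51 to -0.06), against the higher CPM of both over all cells. *Smad4* was lower in IFT20-KO with an interval below 0 in 3 of the 5 bands, and all 5 intervals of *Tgfb1*, *Smad2* and *Ski* included 0. With 1 library per genotype, an effect of the genotype and a difference between the preparations cannot be told apart.

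Within each stimulated library, the receptors differed with the naïve gene share to unequal degrees. Cells with at least 5000 UMIs were ordered by the share of their UMIs from 6 naïve genes, *Ccr7* giving the most UMIs. *Ccr7* was still at 532 CPM in 24hr-WT, against 721 CPM in 0hr-WT, so the share does not measure the naïve state alone. In 24hr-WT, *Tgfbr3* was at 28.7 CPM (26.6 to 30.9) in the top quartile of 1879 cells and at 3.42 CPM (2.78 to 4.15) in the bottom one, a log2 ratio of 3.07 (2.77 to 3.39). In 24hr-KO it was at 35.7 and 6.28 CPM, a ratio of 2.51 (2.25 to 2.78). *Tgfbr1* was also higher in the top quartile, by 1.06 (0.74 to 1.37) in WT and 1.01 (0.72 to 1.30) in IFT20-KO. The ratios of *Tgfbr2* were 0.61 and 0.44, of *Ski* 0.85 and 0.49, and of *Smad7* 0.51 and 0.27. *Tgfb1* went the other way, at -0.31 and -0.33, as did *Skil* at -0.33 and -0.38, and both intervals of *Smad2* included 0.

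Thus 6 members in WT and 5 in IFT20-KO were higher in the top quartile beyond counting error, and 2 in each were lower. Over all genes with at least 10 UMIs, 29% in WT and 29.3% in IFT20-KO were higher by the same measure and 29.1% and 24.2% lower. The lower members are thus near the share of all genes. The quartiles are ranges of a continuous share and not cell types. In 24hr-WT 517 cells lay within 10% of the lower boundary and 423 within 10% of the upper one. Median depth was 11943 UMIs in the top and 14932 UMIs in the bottom quartile of 24hr-WT, and 10320 and 12630 UMIs in those of 24hr-KO.

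**Figure D4:**
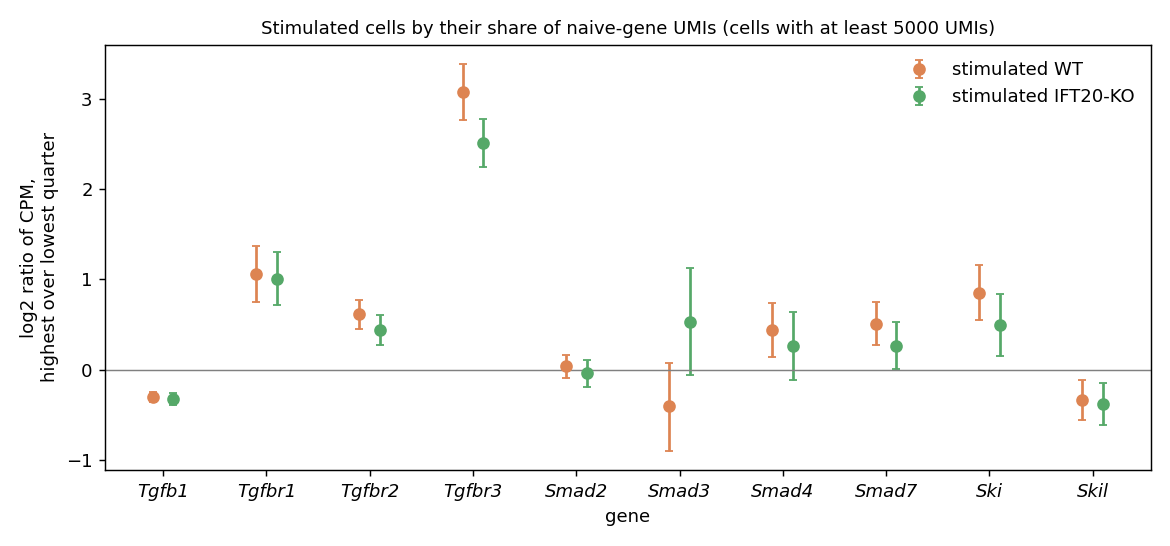
Log2 ratio of CPM between stimulated cells in the top and bottom quartile of the naïve-gene share, in WT and IFT20-KO cells with at least 5000 UMIs, with 95% counting intervals. *Tgfbr3* stands highest in both libraries, *Tgfbr1* is near 1, and *Tgfb1* and *Skil* lie below 0.

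Cells with a *Foxp3* UMI, the factor that defines regulatory T cells, numbered 343 in 0hr-WT. Compared with the other 7688 cells, they had more *Tgfb1*, at 195 against 149 CPM, a ratio of 0.39 (0.23 to 0.55), and more *Tgfbr1*, a ratio of 0.45 (0.02 to 0.86). They had less *Tgfbr3*, at 23.9 against 59.3 CPM, a ratio of -1.31 (-1.80 to -0.86), less *Tgfbr2*, a ratio of -0.53 (-0.71 to -0.35), and less *Smad7*, a ratio of -0.42 (-0.68 to -0.16). The intervals of *Smad2*, *Smad3*, *Smad4*, *Ski* and *Skil* included 0. Median depths of 4583 and 4627.5 UMIs were nearly equal. In 24hr-WT, 176 cells with a *Foxp3* UMI had 17.2 CPM of *Tgfbr1* against 8.21 CPM in the others, a ratio of 1.06 (0.56 to 1.53). *Tgfb1* at 0.37 (0.24 to 0.49) and *Ski* at 0.85 (0.24 to 1.40) were also higher in them. The intervals of the other members included 0, with *Tgfbr3* at 0.16 (-0.30 to 0.59). In 24hr-KO the ratio of *Tgfbr1* for the 318 such cells was 0.44 (0.07 to 0.80), at median depths of 8811 against 4792.5 UMIs. *Tgfb1* was at 0.06 (-0.05 to 0.18) there, so its higher level was not seen in that library. *Tgfbr2* at -0.31 (-0.62 to -0.01) and *Smad7* at -0.50 (-1.04 to -0.01) were lower. The share of all genes that differed in these cells was not counted.

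Stimulated cells with at least 5 UMIs of the 8 cycling genes, 441 in 24hr-WT and 398 in 24hr-KO, had more *Tgfb1* than the other cells with at least 5000 UMIs, by 0.29 and 0.26, and more *Tgfbr3*, by 0.71 and 0.51. *Smad7* was lower in them in 24hr-WT, at -0.52 (-0.88 to -0.17), while its interval in 24hr-KO included 0, at -0.32 (-0.69 to 0.03). Also lower were *Tgfbr2* in 24hr-WT, at -0.27 (-0.50 to -0.05), and *Smad4* in 24hr-KO, at -0.54 (-1.13 to -0.01). In the other stimulated library the interval of each included 0. *Smad3* was higher by 0.78 in 24hr-WT from 42 UMIs in the cycling cells, while in 24hr-KO its interval of -0.95 to 0.62 included 0. The cycling cells were deeper, with medians of 20399 against 13733 UMIs in 24hr-WT. How many of all genes differed in the cycling cells by the same measure was not counted.

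Of 101 other genes of the pathway and the wider TGF-beta superfamily that were matched, 82 passed the minimum for stimulation, of which 8 (9.76%) were at least 2-fold higher and 19 (23.2%) at least 2-fold lower. Over all genes 19.3% were higher and 23% lower by that size, so the lower share is at the background, and the groups below are read against the same shares. The median log2 ratio of the 82 genes was -0.38, between that of the members and that of all genes. Named by size are 8 genes that reached 10 CPM in 1 of the libraries, and the others were named to describe their group.

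Among 8 other receptors tested, 3 were at least 2-fold lower. *Acvrl1*, the type I receptor ALK1, was at 34.3 CPM before and 3.41 CPM after stimulation, a ratio of -3.33 (-3.50 to -3.17). *Acvr1b*, the activin type I receptor ALK4, was at 11.5 and 2.96 CPM, a ratio of -1.96. Among 16 receptor regulators, 5 were at least 2-fold lower. They included the ubiquitin ligases *Nedd4l* (-1.77) and *Smurf2* (-1.64), which turn over receptors and SMADs, and 2 were higher, *Fkbp1a* (1.54), whose product FKBP12 sits on the type I receptor, and *Strap* (1.37), which binds receptors and SMAD7. *Ldlrad4*, an inhibitor of SMAD2 and SMAD3 activation that stayed just under 10 CPM, went from 9.64 to 0.85 CPM, a ratio of -3.51.

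Of 15 tested transcription partners and cofactors of SMADs, 1 was at least 2-fold higher and 3 at least 2-fold lower. *Runx3* (-2.39) and *Runx1* (-1.86), RUNX factors that join SMAD complexes, were lower, while *Tfdp1* (2.76), the dimer partner of E2F factors and a gene tied to the cell cycle, went from 21.4 to 145 CPM. Of 13 tested genes of SMAD turnover and nuclear regulation, 3 were at least 2-fold higher and 1 at least 2-fold lower. The lower one was *Ctdsp1* (-1.75), a phosphatase that acts on SMADs. Its relative *Ctdspl* had 42 UMIs after and 1 UMI before stimulation, a ratio of 3.74 (1.18 to 9.07) at 0.36 CPM, and was named after its values were seen. The co-repressors *Tgif1* and *Tgif2* were each higher by 1.01. *Lrrc32*, which encodes GARP, the surface anchor of latent TGF-beta on regulatory T cells, was at 4.01 and 0.69 CPM, a ratio of -2.53. *Foxp3* was at 19.8 CPM in 0hr-WT and 3.12 CPM in 24hr-WT, with a UMI in 4.27% and 1.78% of cells. The part of the share of regulatory T cells in the ratio of *Lrrc32* was not tested.

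Of 8 tested genes often induced by TGF-beta, 1 was at least 2-fold higher and 3 at least 2-fold lower, with a group median of -0.55. *Tsc22d1* (-1.74) and *Klf10* (-1.21), a zinc finger factor, were lower, and *Id3* (0.70), which encodes an inhibitor of E proteins, was at 130 and 211 CPM. *Junb*, also a general activation gene, was at 269 and 236 CPM.

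**Figure D5:**
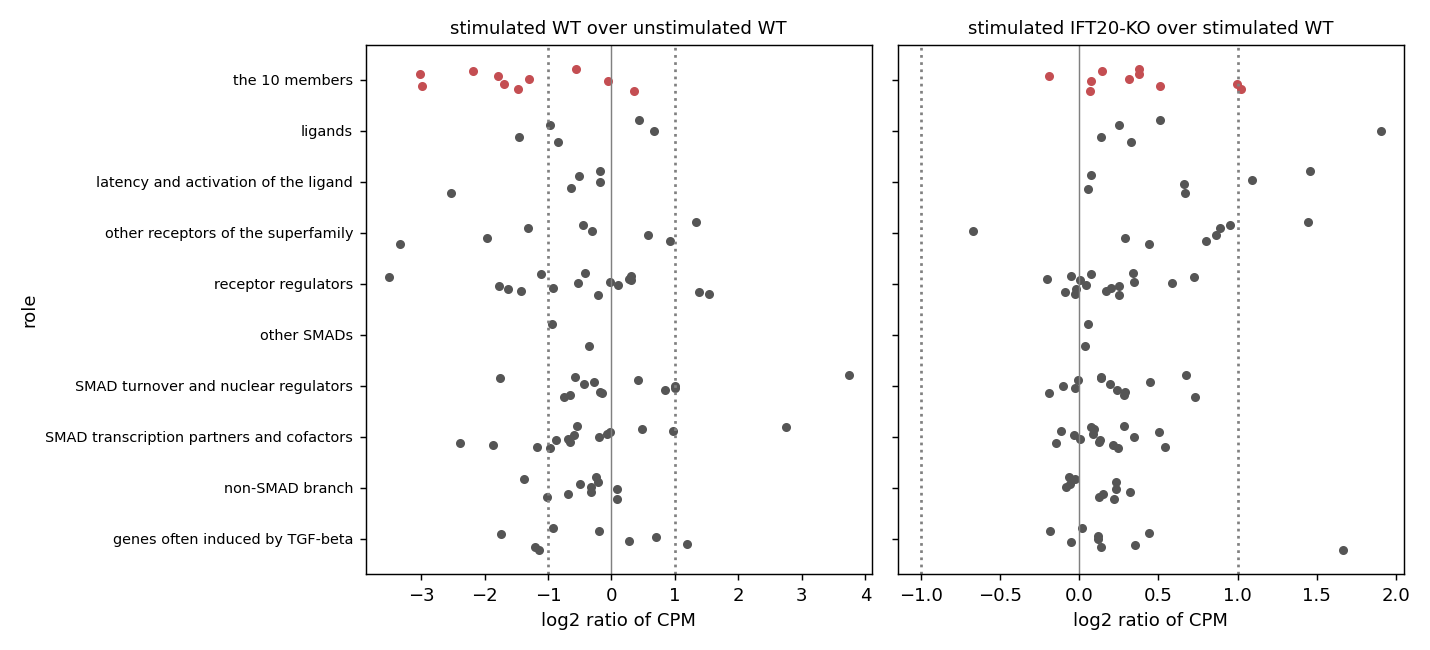
Log2 ratio of CPM for the 10 members (red) and the other pathway genes that passed 10 UMIs (grey, 1 point a gene), by role, for stimulation (left) and for IFT20-KO against WT (right), with dotted lines at 2-fold. For stimulation 9 of the 10 members and 58 of the 82 other genes lie to the left of 0. Over all genes tested, 7043 of 13297 had a ratio below 0.

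In IFT20-KO against WT, 84 of the 101 genes could be tested, of which 5 (5.95%) were at least 2-fold higher and 0 lower, at a median of 0.18. Over all genes 3.92% were higher and 1.67% lower, at a median of 0.14, so the share is near the background. The 5 included *Inhba* (1.90), *Thbs1* (1.46), *Eng* (1.45) and *Itgb8* (1.09), each under 2 CPM in both libraries and named after their values were seen. *Eng*, which encodes endoglin, a co-receptor related to betaglycan, had 196 UMIs in 24hr-KO and 79 in 24hr-WT. Other receptors of the superfamily had a group median of 0.83 over 8 genes, and SMAD transcription partners one of 0.13 over 15 genes.

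For each member past 2-fold, the genes nearest in pattern over the 3 libraries were found by the distance between centred log2 CPM values, among 7829 genes with at least 10 CPM in 1 or more libraries. Nearest to *Tgfbr2* were *Cacnb1*, *Usp28* and *Paqr7*, at distances of 0.06 to 0.07, and nearest to *Smad7* were *Zbtb4*, *Mctp2* and *Gab3*, at 0.01 to 0.04. *Insr*, the insulin receptor gene, was nearest to *Tgfbr1*, with 13.7, 5.28 and 10.9 CPM, followed by *Cyth3* and *AI480526*. *Tgfbr3* was nearest to *AI480526*, *Cdk19* and *Ints6l*, *Smad3* to *Tmem9*, *Phf20l1* and *Mblac2*, *Smad4* to *Klhl6*, *Lars2* and *Slc31a2*, and *Ski* to *Fam69a*, *Sh3pxd2a* and *Hsdl1*. The likeness rests on 3 points and is a description of these libraries.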

How the data were processed

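The authors aligned reads to mm10 and counted UMIs with Cell Ranger, and deposited for each library a table of raw UMI counts per gene and called barcode, without normalization. The file headers give version 3.1.0, the methods another one, and the labels name a 5′ kit where the methods name a 3′ kit. Which transcript end was read is thus unsettled, and the levels of the members are not ranked against one another.

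Counts were summed over cells that had over 200 genes and a mitochondrial share below 15%, and divided by the library total per 1000000. Intervals are exact Poisson for CPM, exact binomial for ratios and Clopper-Pearson for shares, at the 95% level. A comparison took the genes whose UMIs in the pair of libraries came to 10 or more. Cells were thinned to 1400 UMIs at random with a fixed seed, leaving out 801, 421 and 0 shallower cells. No doublets were removed. An alternative left out the 6% of cells with the most UMIs. The calculation was tested on simulated data. Python 3.11.15, numpy 2.4.6, scipy 1.17.1, pandas 2.3.3 and matplotlib 3.10.9 were used.

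The members, gene lists and tests were chosen with earlier results of these data known. Of 102 listed pathway genes, 1 symbol (*Ccn2*) was not matched. Named were all members, the targeted gene, markers, up to 8 pathway genes per comparison past 2-fold with at least 10 CPM in either library, those needed to describe a role group, and for each member past 2-fold the 3 genes nearest in pattern. Gene positions are GENCODE M21 (GRCm38), which holds 30934 of the 31053 identifiers. Promoter sequences are from RefSeq. Some listed genes are not reported here by name.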

Additional observations from a re-analysis of the deposited data

How the results depend on the processing

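The number of members at least 2-fold higher in IFT20-KO, 1 by CPM, was 0 under median-ratio scaling, UMIs per cell, the mean of per-cell fractions, all barcodes, cells with at least 5000 UMIs, cells with at least 3000 UMIs (chosen after seeing the data), thinning and centring on the median of all genes. It was 2 under the stricter cell filter, without the 6% of cells with the most UMIs, and at a 1.5-fold limit. It was also 2 without cells holding 2 or more UMIs of the marker lists of other cell types. That setting left out 2745 of 9903 cells of 24hr-WT and 2492 of 13920 of 24hr-KO. *Cst3* gave 8923 of the 10284 UMIs of those lists in 24hr-WT, so the setting is not a removal of other cell types alone. For stimulation, the number at least 2-fold lower, 7 by CPM, was 2 in UMIs per cell, 4 after thinning and 5 under the mean of per-cell fractions, and the number at least 2-fold higher, 0 by CPM, was 2 in UMIs per cell. *Smad3* reversed to 0.051 in UMIs per cell. *Skil*, at -0.56 by CPM, also changed sign, to 0.79 in UMIs per cell and 0.17 after thinning. The UMIs-per-cell values differ by construction, as they are not divided by library totals, and the other causes were not tested. For stimulation *Tgfbr2* and *Smad7* were past 2-fold in all 13 alternatives, with ratios of -3.08 to -1.63 and -3.12 to -1.66. The ratio of *Tgfbr1* in IFT20-KO over WT ran from 0.39 to 1.24 and was past 2-fold in 5 of 13. Of 260 alternative member ratios, 79 for IFT20-KO and 69 for stimulation lay within the counting interval. No paired analysis was possible because each group has 1 library. Depth limits *Smad3* most, with 324 to 468 UMIs per library.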
